A study of Mus musculus with 6 samples.

Results

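The retinoic acid pathway was followed through 9 genes in P19 cells, a mouse embryonal carcinoma line: the retinoic acid receptors Rara, Rarb and Rarg, the retinoid X receptors Rxra and Rxrb, the cellular retinoic acid binding proteins Crabp1 and Crabp2, and the retinoid enzymes Dhrs3 and Cyp26a1. They were chosen by name from the 34745 genes of the deposited table, where each of the 9 had 1 row. The libraries were 3 of P19 cells given the peptide PDTLN1 and 3 of P19 cells labelled as having had no treatment, all grown in serum-containing medium with antibiotics. The labels name no retinoid among the agents and no dose or duration for the peptide, and their treatment protocol is worded alike for both groups. Titles of the treated samples carry the code P50, which is not explained. RNA was sequenced after a TruSeq preparation, and total gene counts lay between 10381307 and 11663081 per library. Whether each library had its own culture is not stated, and p-values therefore rest on the spread between these 6 libraries, which may be technical. In such bulk RNA, fewer cells of a kind and less RNA per cell cannot be told apart.

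Retinoic acid is made from vitamin A and acts through pairs of nuclear receptors, a RAR bound to a RXR, which sit on repeated short sites in DNA and switch from repression to activation when the ligand binds. Binding proteins of the CRABP family carry the ligand in the cytoplasm, and enzymes of the CYP26 family destroy it. Several genes of the pathway are themselves switched on by retinoic acid, which closes feedback loops. Aggregated P19 cells given retinoic acid become neurons and glia, which made the line a common model of the pathway.

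Promoter sequences of 2 of the genes are shown because they hold the kind of repeat that RAR and RXR pairs are known to bind. RefSeq promoter windows (build GRCm38.p6), of 300 bases each with 250 before a transcript start and 50 after, were found for 8 of the 9 genes. Crabp2 had no window and was not searched. A direct repeat was searched on both strands as a pair of the short site AGGTCA, with G also allowed for its leading A and T for its last G, and 5 bases between the pair, the spacing of classical retinoic acid response elements. Windows of Cyp26a1 and Rarb held it, in a genome where 32 of 32851 windows (0.0974%) did. Capitals mark the repeat in the sequences, which are written on the strand of the gene. The Cyp26a1 window is chr19:37697558-37697857 on the plus strand, with the repeat on the opposite strand (read there as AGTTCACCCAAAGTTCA) and 15 bases between its end and the start of the transcript.
Cyp26a1: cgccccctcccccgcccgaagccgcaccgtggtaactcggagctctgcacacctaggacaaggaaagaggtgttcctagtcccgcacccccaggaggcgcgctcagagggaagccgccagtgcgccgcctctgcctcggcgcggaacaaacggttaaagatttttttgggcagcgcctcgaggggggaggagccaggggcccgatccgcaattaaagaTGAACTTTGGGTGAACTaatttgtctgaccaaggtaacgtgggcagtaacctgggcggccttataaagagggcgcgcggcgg
The Rarb window is chr14:16575427-16575726 on the minus strand, with the repeat on the strand of the gene and 36 bases between its end and the start of the transcript.
Rarb: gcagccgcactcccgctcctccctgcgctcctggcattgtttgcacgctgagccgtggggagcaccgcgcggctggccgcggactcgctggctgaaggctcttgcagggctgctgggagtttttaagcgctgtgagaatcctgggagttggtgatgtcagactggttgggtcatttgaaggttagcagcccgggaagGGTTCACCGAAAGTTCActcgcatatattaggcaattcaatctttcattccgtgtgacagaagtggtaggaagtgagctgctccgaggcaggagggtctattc
These matches describe the letters in the windows and were not tested for binding. With 1 or 2 bases between the short sites, 0 of the 16 windows of these genes held a repeat, against 0.222% and 0.268% of all windows. Of the 31 genes with the 5-base spacing anywhere in the windows, 6 could be tested for a change with PDTLN1, Rarb and Cyp26a1 among them. At an adjusted p under 0.05, 0 of the 6 passed edgeR's quasi-likelihood test, against 0.0217% of all tested genes, and 0 passed DESeq2. At an unadjusted p under 0.05 in edgeR, 1 of the 6 was found, against 3.99% of all tested genes.

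The retinoid genes ranged from low to fairly high levels, and the 2 genes found to hold the repeat stood lowest. Deposited FPKM divides counts by gene length and library total. The lengths it implies differ from the exon lengths of GENCODE M21 for most of these genes, so their order depends on the deposited lengths. On this scale Crabp2 led with 16.1 ± 0.753 (SD over the 6 libraries), more than 77.8% of the 13836 tested genes. Rara followed at 9.84 ± 1.27 FPKM and Crabp1 at 9.18 ± 1.54 FPKM, more than 66.9% and 65.3% of the tested genes. Ranges of these 2 overlapped, and Rara was above Crabp1 in 3 of the 6 libraries, so their order was not resolved. Rxrb averaged 6.52 ± 0.286 FPKM, Rarg 5.54 ± 0.691 FPKM and Rxra 4.23 ± 0.481 FPKM. In that order, these genes stood above 56.7%, 52.3% and 45.5% of the tested genes. Their neighbouring ranges also overlapped, although Rarg exceeded Rxra in each of the 6 libraries and Rxrb exceeded Rarg in 5. Dhrs3 lay below all of these at 2.88 ± 0.499 FPKM, more than 36.2% of the tested genes. Cyp26a1 averaged 1.12 ± 0.227 FPKM and Rarb 0.483 ± 0.224 FPKM, more than 19.2% and 8.8% of the tested genes.

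**Figure D1:**
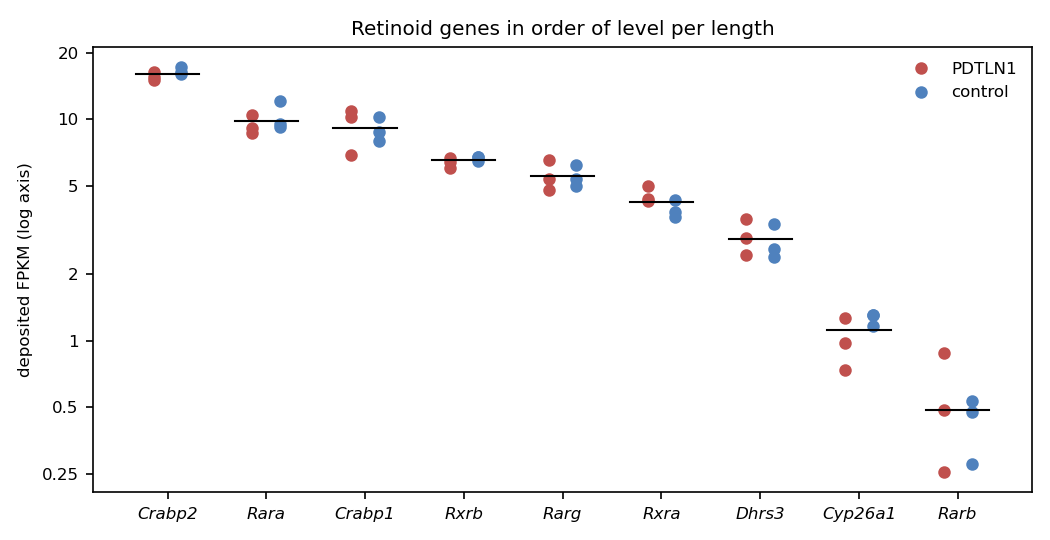
Deposited FPKM (log axis) of each retinoid gene in the 3 PDTLN1 and 3 control libraries; each point is 1 library and each line the mean over the 6. Crabp2 stands at 15.1 to 17.2 FPKM and Rarb at 0.254 to 0.876 FPKM, and the PDTLN1 and control points of Rara, Rarb and Crabp1 intermix.

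No difference between PDTLN1 and control passed the test for any of the 9 genes. In edgeR's quasi-likelihood test over all 13836 tested genes, 0 of the 9 passed a Benjamini-Hochberg adjusted p of 0.05, against 0.0217% of all tested genes (3 genes, all higher with PDTLN1 and none on the retinoid lists). At an unadjusted p under 0.05 the count was again 0 of 9, against 3.99% of tested genes (2.3% higher and 1.69% lower). DESeq2 also called 0 of the 9, against 0.0607% of the 16483 genes to which it gave an adjusted p (0.0303% higher and 0.0303% lower); at an unadjusted p under 0.05 it found 1.83% of its genes. In CPM (counts relative to the TMM-scaled library total), the groups overlapped for each of the 9, whereas for 9.79% of tested genes they did not (4.81% higher and 4.98% lower). Log2 fold changes of PDTLN1 over control ran from -0.34 for Cyp26a1 to 0.34 for Rarb, 5 above 0 and 4 below it, with a median of 0.00, and edgeR adjusted p-values of 0.989 or above. Over all tested genes 49.7% lay above 0. For 7 of the 9, the 95% interval of the fold change lay within 1.5-fold in either direction. Rarb and Cyp26a1, with 98 and 131 counts over all 6 libraries, were the exceptions, with intervals from 0.615 to 2.61-fold and from 0.506 to 1.23-fold.

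**Figure D2:**
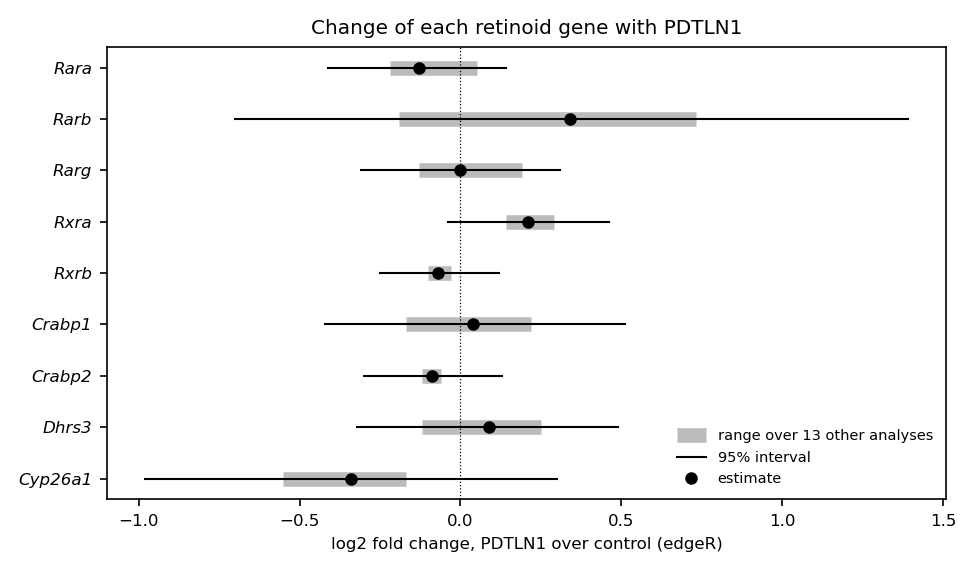
Log2 fold change of PDTLN1 over control for each retinoid gene (edgeR), with its 95% interval (line) and the range over 13 other analyses (grey bar). Every interval crosses 0, from -0.70 to 1.39 for Rarb, the widest, and from -0.25 to 0.12 for Rxrb, the narrowest; the estimates of Rara, Rarb, Rarg, Crabp1 and Dhrs3 change sign in some of the other analyses.

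Positions of genes are those of the deposited table, in GRCm38. Among the RARs, the retinoic acid sensors of the receptor pair, Rara (ENSMUSG00000037992, chromosome 11 from 98927818 to 98974942, plus strand) is the isotype found in most tissues. It was at 49.3, 59.5 and 51.6 CPM in PDTLN1 libraries 1, 2 and 3, against 69.1, 52.6 and 54.2 CPM in control libraries 1, 2 and 3. Control 1 was the highest library, PDTLN1 2 came next, and the other 4 lay close together across both groups. The log2 fold change was -0.13 (SE 0.12, edgeR adjusted p 0.989) and came to 0.001 without control library 1.

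Rarg (ENSMUSG00000001288, chromosome 15 from 102234938 to 102257517, minus strand), an isotype of early embryonic cells and skin, had 27.0, 36.7 and 30.0 CPM in the PDTLN1 libraries, against 35.2, 30.2 and 28.2 CPM in controls. The highest values again came from PDTLN1 2 and control 1. Both groups averaged 31.2 CPM, with SDs of 4.98 for PDTLN1 and 3.59 for control (n = 3 each). Its log2 fold change was 0.00, with an SE of 0.14 and a 95% interval from -0.31 to 0.31. Rara held 60.8 ± 2.07% of the summed RAR FPKM in PDTLN1 libraries and 63.2 ± 1.15% in controls, and Rarg held 35.7 ± 1.38% and 34.1 ± 1.67% (SD, n = 3 each).

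Rarb (ENSMUSG00000017491, chromosome 14 from 16430842 to 16575472, minus strand) is itself a direct target of retinoic acid and often serves as its readout. It had 8, 17 and 31 counts in the PDTLN1 libraries and 15, 9 and 18 counts in controls, which is 0.773, 1.47 and 2.64 CPM against 1.44, 0.843 and 1.61 CPM. PDTLN1 library 3 held the highest value and PDTLN1 library 1 the lowest, so the treated group enclosed the controls. PDTLN1 over control gave a log2 fold change of 0.34 (SE 0.46, edgeR adjusted p 0.989), and -0.19 without PDTLN1 library 3. The higher coordinate of Rarb, the side where this minus-strand gene starts, is 16819156 in GENCODE M21 and 16575472 in the deposited table. The deposited values imply a length of 3.03 kb, against 5265 exon bases in GENCODE M21, so the level may cover only part of the gene. In the deposited table the lower coordinate of Rarb, where its transcript ends, lies 54 bases beyond the end of Top2b. Top2b is a topoisomerase gene on the other strand with a mean of 2374 counts. In GENCODE M21 Top2b runs 4621 bases into Rarb. How the counting treated strand is not given in the sources used here, and reads of both genes cannot be told apart. Top2b was chosen for mention after its values were seen.

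The RXRs are the shared partners of the RARs and of several other nuclear receptors. Rxra (ENSMUSG00000015846, chromosome 2 from 27676440 to 27762957, plus strand) had 36.2, 41.2 and 35.4 CPM in PDTLN1 libraries, against 31.5, 36.0 and 30.0 CPM in controls. Control 2 lay above PDTLN1 3, and otherwise each treated library exceeded each control. This was the smallest unadjusted p of the 9 (0.0845, edgeR's quasi-likelihood test), at a log2 fold change of 0.21 (SE 0.11) and an adjusted p of 0.989. Over the 13 other analyses its log2 fold change stayed above 0, from 0.14 to 0.29, and its adjusted p ran from 0.441 to 1.00.

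Rxrb (ENSMUSG00000039656, chromosome 17 from 34031812 to 34038393, plus strand) was the steadiest gene of the set. It had 45.3, 42.4 and 46.9 CPM in PDTLN1 libraries, against 47.9, 45.7 and 47.5 CPM in controls. PDTLN1 2 was lowest and the rest lay within a narrow band. Its coefficient of variation over the 6 libraries was 4.37%, beside 4.45% from counting error alone, and its log2 fold change was -0.07 (SE 0.08). Rxrb made up 53.9 ± 3.11% of the summed RXR FPKM in PDTLN1 libraries and 58.3 ± 0.884% in controls, Rxra 38.4 ± 2.89% and 34.3 ± 3.69% (SD, n = 3 each). Rxrg, the remaining family member and named after its values were seen, averaged 0.907 ± 0.0395 FPKM in PDTLN1 libraries and 0.854 ± 0.345 FPKM in controls. The summed RXR FPKM was 11.7, 11.9 and 11.8 in PDTLN1 libraries and 11.5, 11.3 and 11.5 in controls, a narrow gap without overlap that was not tested. Among single tested genes, 9.79% had groups that did not overlap in CPM.

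Of the binding proteins, Crabp2 (ENSMUSG00000004885, chromosome 3 from 87948666 to 87953376, plus strand) delivers retinoic acid to the RARs in the nucleus. It had 24.6, 25.9 and 23.8 CPM in PDTLN1 libraries, against 27.4, 25.9 and 25.6 CPM in controls. PDTLN1 2 lay just above control 3, so the groups met at their edges, and the log2 fold change was -0.09 (SE 0.10). Crabp1 (ENSMUSG00000032291, chromosome 9 from 54764748 to 54773110, plus strand), which holds the ligand in the cytoplasm, had 8.79, 5.55 and 8.10 CPM in PDTLN1 libraries, against 6.42, 8.24 and 7.07 CPM in controls. Its lowest values came from PDTLN1 2 and control 1, the same libraries that were highest for Rara and Rarg. The log2 fold change was 0.04 (SE 0.21). Crabp1 has a short transcript, 0.802 kb by the deposited counts and FPKM, so 64 to 95 counts per library put it beside Rara in FPKM. The ratio of Crabp2 to Crabp1 FPKM was 1.41, 2.35 and 1.48 in the PDTLN1 libraries and 2.15, 1.59 and 1.83 in controls, and the treated libraries alone span the whole range.

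Of the enzymes, Dhrs3 (ENSMUSG00000066026, chromosome 4 from 144892827 to 144928209, plus strand) reduces retinaldehyde back to retinol and so limits the supply of retinoic acid. It had 21.9, 14.9 and 17.7 CPM in PDTLN1 libraries, against 15.9, 20.8 and 14.7 CPM in controls. PDTLN1 1 and control 2 were the highest, as they were for Crabp1, and these same libraries were the lowest for Rarb. The log2 fold change was 0.09 (SE 0.18).

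Cyp26a1 (ENSMUSG00000024987, chromosome 19 from 37697808 to 37701528, plus strand) oxidises retinoic acid for clearance, and its promoter, printed above, is a classical target of the receptors. It had 18, 15 and 26 counts in the PDTLN1 libraries and 24, 22 and 26 counts in controls, or 1.74, 1.30 and 2.22 CPM against 2.30, 2.06 and 2.33 CPM. PDTLN1 1 and 2 lay below all controls, and PDTLN1 3 lay among them. PDTLN1 over control gave a log2 fold change of -0.34 (SE 0.28, 95% interval from -0.98 to 0.30, edgeR adjusted p 0.989). Its spread over the 6 libraries was 20.1% of the mean, beside 21.4% from counting error alone. Leaving out PDTLN1 2 gave -0.17, and leaving out PDTLN1 3 gave -0.55.

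**Figure D3:**
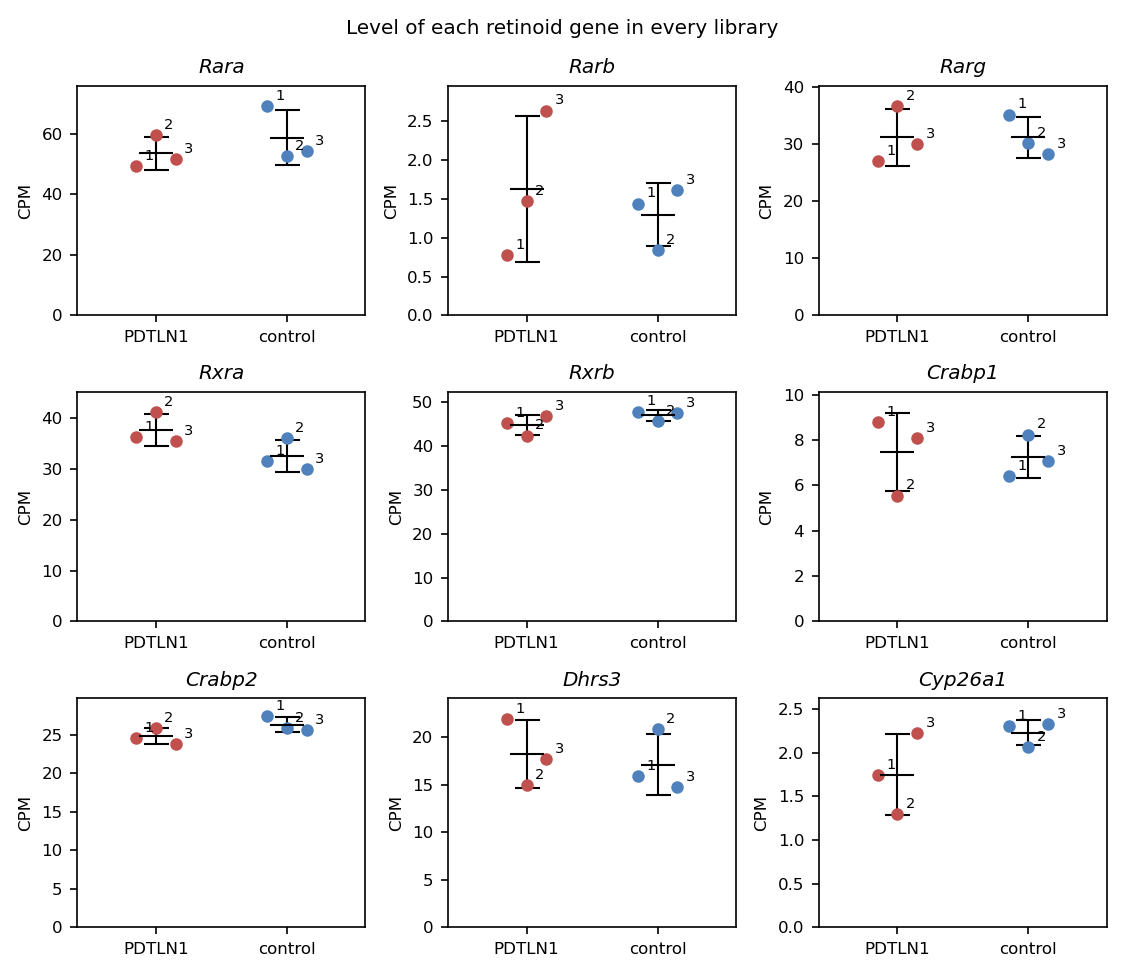
CPM of each retinoid gene in every library (points, numbered by replicate), with the mean and SD of the 3 PDTLN1 and 3 control libraries; all axes start at 0. The groups overlap at each gene, and single libraries such as PDTLN1 3 for Rarb (2.64 CPM) and control 1 for Rara (69.1 CPM) stand apart within their group.

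Part of the set varied between libraries by more than counting error. Coefficients of variation over the 6 libraries were 12.9% for Rara, 12.4% for Rarg, 11.3% for Rxra and 17.5% for Dhrs3, beside 4.03%, 5.40%, 5.09% and 7.20% from counting error alone. Crabp2 varied by 4.83% against 5.97% from counting, like Rxrb and Cyp26a1 no more than counting allows. The libraries also differed in a list of 20 stress genes, ATF4 with its targets in amino acid supply. Relative to each gene's mean, the list stood at 0.42, -0.44 and -0.24 log2 units in PDTLN1 libraries 1, 2 and 3, and at -0.37, 0.20 and 0.43 in control libraries 1, 2 and 3. Of the 20, 3 had log2 fold changes of PDTLN1 over control above 0 and 17 below, with a median of -0.14. PDTLN1 2 and control 1, lowest on that list, were the libraries with the highest Rara and Rarg and the lowest Crabp1, and the part of this difference in the retinoid genes was not tested. Leaving out PDTLN1 1 and control 1 together, an analysis added once the values were known, gave 0 called retinoid genes, against 0.652% of tested genes. On the stress list PDTLN1 1 and control 1 stood opposite to the rest of their groups. Leaving them out left low PDTLN1 and high control libraries, so the direction of stress gene calls was set by that choice. In the same analysis 4 of the 20 stress genes were called, all lower with PDTLN1 (Atf4, Atf3, Slc7a5 and Mthfd2, of which all but Atf4 were chosen for mention after their values were seen). There Rara, Crabp1 and Dhrs3 had log2 fold changes of 0.05, -0.17 and -0.12.

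**Figure D4:**
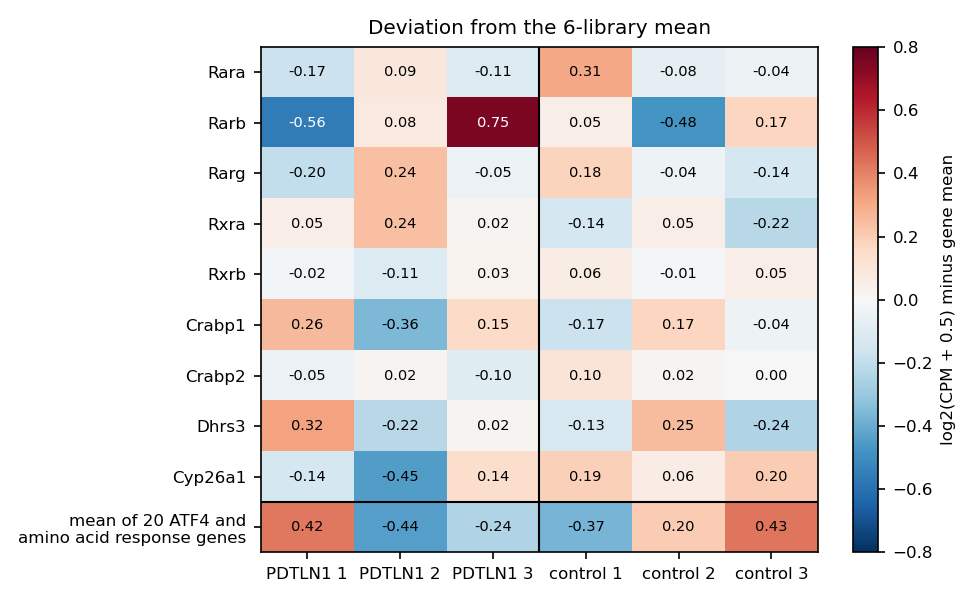
Deviation of each retinoid gene from its own 6-library mean, in log2(CPM + 0.5), with the mean of 20 stress response genes in the bottom row; PDTLN1 libraries are on the left. Rara and Rarg are highest in PDTLN1 2 and control 1, where Crabp1 is lowest, and Rarb spans -0.56 to 0.75.

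Rarb had the largest spread of log2 CPM of the 9 genes (SD 0.48). Of 9930 genes at 10 CPM or more, those with the pattern most like it over the 6 libraries included Rasa3 and Snapc5, with a Pearson r of log2 CPM of 0.993 and 0.972. Rasa3, a GTPase-activating protein gene, had 19.5, 21.6 and 24.3 CPM in the PDTLN1 libraries and 21.3, 19.8 and 22.4 CPM in controls. Like Rarb, both genes were highest in PDTLN1 3, and with so many genes searched over so few libraries a close match is a description only.

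In the rest of the pathway, too, no gene passed the test. Of 68 other genes in 5 lists (transport and binding, metabolic enzymes, coregulators, other nuclear receptors and retinoic acid targets), 48 had enough counts to test and 0 passed in edgeR's quasi-likelihood test or in DESeq2. At an unadjusted p under 0.05, 6 of the 48 were found, 5 higher and 1 lower with PDTLN1, beside 3.99% of all tested genes. The groups did not overlap for 10 of the 48 (20.8%), beside 9.79% of all tested genes. Log2 fold changes lay above 0 for 35 and below 0 for 13, with a median of 0.09, while 49.7% of all tested genes lay above 0. By list, 11 lay above 0 and 1 below for coregulators, 8 and 3 for enzymes, and 8 and 3 for other nuclear receptors. For targets it was 7 and 5, and for transport and binding 2 and 3, with some genes on more than 1 list.

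In transport and binding, 0 of 5 tested genes passed edgeR's test (1 lower at an unadjusted p under 0.05, against 3.99% of all tested genes). The median log2 fold change was -0.17. Groups did not overlap for 2 of the 5 (40%, all lower with PDTLN1), against 9.79% of all tested genes. Rbp4, the carrier of retinol in blood, had 3.58, 3.47 and 4.52 CPM in PDTLN1 libraries, against 5.85, 4.87 and 7.52 CPM in controls. Its treated libraries were all below the controls, and the difference did not pass (log2 fold change -0.65, SE 0.22, edgeR adjusted p 0.989). Fabp5, a fatty acid binding protein that can also carry retinoic acid, was the most abundant gene of the list at 21.8 FPKM and had a log2 fold change of 0.01; it has processed pseudogenes, so its counts are uncertain.

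Of the other metabolic enzymes, 0 of 11 tested passed edgeR's test (0 at an unadjusted p under 0.05, against 3.99% of all tested genes). The median log2 fold change was 0.11. Groups did not overlap for 1 of the 11 (9.09%), against 9.79% of all tested genes. Rdh10, which makes retinaldehyde from retinol and thereby works against Dhrs3, had 19.5, 22.4 and 20.1 CPM in PDTLN1 libraries, against 16.5, 16.1 and 19.1 CPM in controls. All treated libraries were higher than all controls, and this did not pass either (log2 fold change 0.26, SE 0.12, edgeR adjusted p 0.989). The most abundant enzyme was Adh5, at 24.8 FPKM, with a log2 fold change of -0.10. Some enzymes were chosen for mention after their values were seen. Aldh1a2, the main retinoic acid synthesising enzyme of the early embryo, averaged 1.45 ± 0.572 FPKM in PDTLN1 libraries and 1.11 ± 0.225 FPKM in controls (SD, n = 3 each). The relatives of Cyp26a1 had few counts, at most 6 per library for Cyp26b1 and at most 1 for Cyp26c1.

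Receptor coregulators, which the RAR and RXR pair recruits to repress or activate, were all measurable. Of these, 0 of 12 passed edgeR's test (2 higher at an unadjusted p under 0.05, against 3.99% of all tested genes). Log2 fold changes of the 12 ran from -0.02 to 0.35 with a median of 0.11, and 11 lay above 0, against 49.7% of all tested genes. The coactivator gene Ncoa1 had 46.7, 47.8 and 50.0 CPM in PDTLN1 libraries, against 41.8, 39.7 and 42.3 CPM in controls. Its groups did not overlap and the test was not passed (log2 fold change 0.22, SE 0.08, edgeR adjusted p 0.989). Groups did not overlap for 3 of the 12 coregulators (25%, all higher with PDTLN1), against 9.79% of all tested genes. Tbl1x, a subunit of the NCoR corepressor complex and the most abundant of the list at 30.6 FPKM, had a log2 fold change of 0.10.

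Among other nuclear receptors that pair with RXR or compete for its sites, 0 of 11 tested passed edgeR's test. Of the 11, 2 were higher at an unadjusted p under 0.05, against 3.99% of all tested genes. The median log2 fold change was 0.01. Nr2c2, an orphan receptor that binds similar repeats, averaged 84.9 ± 9.27 CPM in PDTLN1 libraries and 66.0 ± 9.40 CPM in controls (SD, n = 3 each; log2 fold change 0.36, edgeR adjusted p 0.989). Nr6a1, an orphan receptor of embryonic cells, had the highest level of the list at 11.5 FPKM and a log2 fold change of 0.02.

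Targets of retinoic acid were mostly low. Of 12 tested, 0 passed edgeR's test (1 higher at an unadjusted p under 0.05, against 3.99% of all tested genes). Their log2 fold changes were above 0 for 7 and below 0 for 5, with a median of 0.03. Meis2, a homeodomain gene of the target list, had 22.9, 23.9 and 19.9 CPM in PDTLN1 libraries, against 17.6, 18.9 and 16.5 CPM in controls. PDTLN1 libraries were all above the controls without passing the test (log2 fold change 0.33, SE 0.12, edgeR adjusted p 0.989). Groups did not overlap for 3 of the 12 targets (25%), 1 higher and 2 lower with PDTLN1, against 9.79% of all tested genes. Hoxb1, an early homeobox target chosen for mention after its values were seen, had at most 7 counts in any library.

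**Figure D5:**
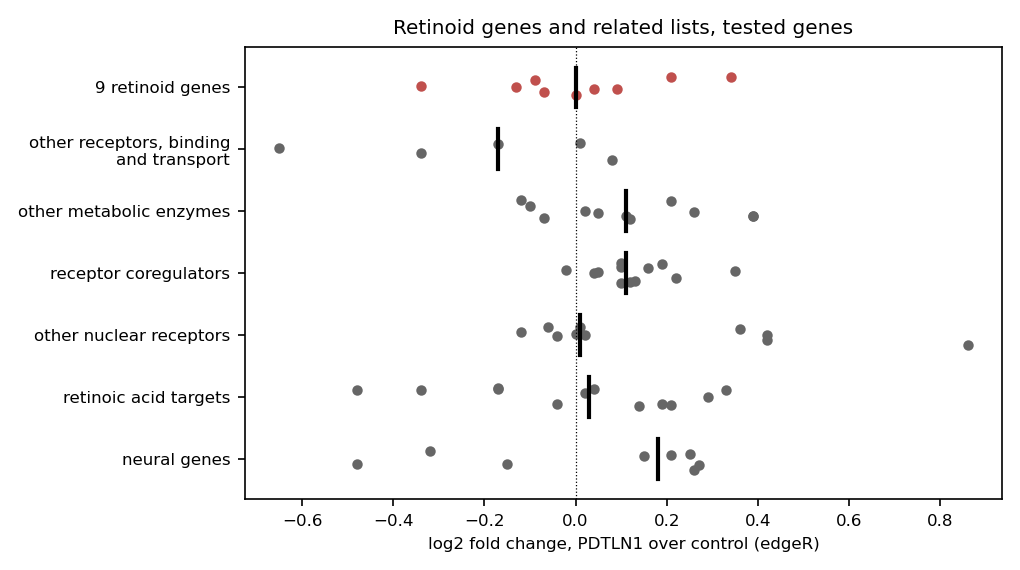
Log2 fold change of PDTLN1 over control (edgeR) for the tested genes of the 9 retinoid genes, the 5 related retinoid lists and the neural list; each point is 1 gene and each black line the median of its list. Medians of these lists run from -0.17 for transport and binding to 0.18 for neural genes, and no gene shown passed the test.

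Most of the listed pluripotency genes, which mark embryonal carcinoma cells, were expressed in both groups, and 1 of the 8 had too few counts to test. Pou5f1, the central pluripotency factor, averaged 1351 ± 83.4 CPM in PDTLN1 libraries and 1462 ± 32.5 CPM in controls (SD, n = 3 each). Sox2 averaged 75.0 ± 13.6 CPM in PDTLN1 libraries and 73.7 ± 22.3 CPM in controls, where it ran from 55.9 to 98.7 CPM. Nanog averaged 90.0 ± 10.6 CPM in PDTLN1 libraries and 97.5 ± 11 CPM in controls. Of the 7 tested genes of that list 2 lay above 0 and 5 below. With edgeR or DESeq2 0 passed (1 lower at an unadjusted p under 0.05 in edgeR, against 3.99% of all tested genes). For 2 of the 7, Pou5f1 and Utf1, all PDTLN1 libraries were below all controls (28.6%, against 9.79% of all tested genes without overlap in either direction). Utf1, with the smallest p among them, did not pass, at a log2 fold change of -0.38 (edgeR adjusted p 0.989). Of 12 neural genes that retinoic acid induces in this line, 8 could be tested and 0 passed with edgeR or DESeq2. In edgeR 1 of the 8 was higher at an unadjusted p under 0.05, against 3.99% of all tested genes. Gap43, a growth cone protein gene, averaged 46.4 ± 1.86 CPM in PDTLN1 libraries and 38.4 ± 0.871 CPM in controls (SD, n = 3 each; log2 fold change 0.27, edgeR adjusted p 0.989). Tubb3, the neuronal tubulin gene, had a log2 fold change of -0.32, with its groups overlapping. The value was -0.56 without PDTLN1 1 and -0.12 without PDTLN1 2. Its CPM was highest in control 3, PDTLN1 1 and control 2, the libraries highest on the stress list, and this likeness was not tested. The extraction text of the labels names retinas, and of 12 photoreceptor and retina genes Crx, Arr3 and Opn1sw had 0 counts in all libraries, which allows up to 0.257 to 0.289 CPM (3 counts per library, counting error only), and 1, Gnat2, had enough counts to test (log2 fold change -0.37, which was -0.82 without PDTLN1 3 and -0.06 without PDTLN1 1). Of 8 endoderm genes 3 could be tested and 0 passed with edgeR or DESeq2. In edgeR 1 of the 3 was higher at an unadjusted p under 0.05, against 3.99% of all tested genes. Pdgfra had a log2 fold change of 0.51 and Dab2 of -0.03.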

How the data were processed

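Counts were deposited by the authors as whole numbers per gene and library. FPKM values were also deposited by the authors. In each of the 15678 genes counted in all libraries, counts and FPKM implied 1 gene length within 0.1%. Counts were therefore tested, and FPKM was used to compare levels between genes. That check compares libraries and leaves the lengths themselves unchecked. Against GENCODE M21 exon bases, the implied length was 7.05 kb for Rxrb (3973 bases), 6.14 kb for Dhrs3 (2927) and 3.03 kb for Rarb (5265). For Crabp1 it was 0.802 kb (802 bases). Orders of level and shares of family FPKM depend on these lengths. Bowtie 0.12.2 and the builds mm8 and mm9 are named in the submitters' processing notes, without roles; the counter, its strand setting and the annotation are not stated there or in the labels. Of 34267 identifiers found in GENCODE M21 (GRCm38), 80.8% had the same position in the table, among them 6 of the 9 retinoid genes, so coordinates are the table's, in GRCm38. Ends of the other 3 differ, by a few bases for Rxrb and Cyp26a1. The difference is large for Rarb, whose higher coordinate is 16575472 in the table and 16819156 in GENCODE M21.

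Groups followed the treatment label, and columns were matched by sample title. Counts were fitted with edgeR 4.0.16 (R 4.3.3): filterByExpr, TMM, robust glmQLFit and glmQLFTest, two-sided, Benjamini-Hochberg over 13836 genes, threshold 0.05. The SE is the log2 fold change over the square root of F, and 95% intervals use its t quantile. CPM uses TMM-scaled totals; logs of single libraries use a pseudocount of 0.5 CPM. Counting error is the inverse square root of the mean count. The steps were tested on simulated data. Depth per library is 10381307 to 11663081 counts; limits for counts of 0 cover counting error only.

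Members and lists were chosen with earlier results of these data known. Named are the 9 genes, in each other list the gene with the smallest p and the most abundant, the 3 genes most like the most variable member by Pearson correlation, and Pou5f1, Sox2 and Nanog; other names are said to be chosen after their values were seen, and a few genes that the rule names are not reported here. The stress list's 2 such genes are given with the processing alternatives. Other analyses left out each library in turn, blocked on the replicate number, or used DESeq2 1.42.0, DESeq2 size factors, library totals alone, no filter beyond 1 count, or a minimum of 1 CPM in 3 libraries; leaving out both libraries numbered 1 was added after seeing the data.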

Additional observations from a re-analysis of the deposited data

How the results depend on the processing

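Over 13 other analyses, of which 1 was added after seeing the data, 0 of the 9 retinoid genes and 0 of the other retinoid list genes passed in any. The number of genes called over all genes, 3, was 1 with the replicate number as a block, 10 with DESeq2, 8 with no filter beyond 1 count, 91 without both libraries numbered 1, and 2 to 13 when 1 library was left out, highest without control 1 and lowest without control 2 or PDTLN1 3. Of the 9 retinoid genes, 5 changed sign. With 1 library left out, log2 fold changes ran from -0.22 to 0.001 for Rara, -0.19 to 0.66 for Rarb, -0.13 to 0.10 for Rarg, -0.09 to 0.22 for Crabp1 and -0.07 to 0.25 for Dhrs3. The sign turned without control 1 (Rara, Crabp1), PDTLN1 3 (Rarb, Crabp1), PDTLN1 2 or control 2 or 3 (Rarg), PDTLN1 1 (Crabp1, Dhrs3) and control 3 (Dhrs3). Without both libraries numbered 1 they were 0.05 for Rara, -0.17 for Crabp1 and -0.12 for Dhrs3, and with the replicate block -0.003 for Rarg; the cause was not tested. Rxra, Rxrb, Crabp2 and Cyp26a1 kept their sign in all 13. Of the other named genes, 6 changed sign only with 1 library left out, Fabp5 (-0.08 to 0.07), Nr6a1 (-0.04 to 0.06), Dab2 (-0.13 to 0.07), Sox2 (-0.14 to 0.30), Rasa3 (-0.04 to 0.12) and Snapc5 (-0.12 to 0.14). Atf4 (-0.19) was called without both libraries numbered 1 (-0.54), as were 3 others of the 20 stress genes, and Slc7a11 (0.33) in none. On the stress list, that choice of libraries left low PDTLN1 against high control libraries. Its 91 calls cannot be read apart from the choice. Same-numbered libraries did not deviate together (correlations across genes -0.359, -0.137 and -0.104 for numbers 1, 2 and 3), so no pairing by number was seen. Rarb and Cyp26a1 had the fewest counts, and their intervals reach 2.61-fold and 0.506-fold; over the libraries Rarb varied by 46.1%, against 24.7% from counting error alone.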
